A study of Homo sapiens with 12 samples.

Results

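CCNB1, FBXO5, MELK, CKS1B, ECT2, NUSAP1 and CKAP2 are 7 genes that drive, time or carry out the entry into mitosis and the exit from it. All 7 were measured, among 14884 genes that could be named on the array, and each had 1 transcript cluster (the array's unit for a gene or transcript). They were picked by name because earlier results of these same arrays had shown differences between the groups, so their differences are given as a description, with no p. Counts of them that passed limma's threshold stand beside the share of all rows that did, and support nothing. The cells were HEK293, an established human embryonic kidney line transformed with adenovirus DNA. The mimic-1825 group received a synthetic copy of the microRNA miR-1825 and the control group received AllStars Negative Control siRNA, an RNA with no intended target. Both were delivered at 5 nM with HiPerfect reagent, and total RNA was taken after 24 h. Each group had 6 arrays (Human Gene 2.0 ST), and no label says whether they came from separate cultures, so the spread between arrays may be technical. No untransfected cells were included, so whatever transfection itself does is shared by both groups. The series title gives the search for mRNA targets of miR-1825, linked there to amyotrophic lateral sclerosis, as the purpose.

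A cell enters mitosis when CDK1 bound to cyclin B1 is switched on, and it leaves when the anaphase-promoting complex (APC/C), a ubiquitin ligase, has cyclin B1 destroyed. The genes of this switch are transcribed in waves, with most of them highest in G2 and M phase. Many of their promoters carry a cell cycle genes homology region (CHR), read by the MuvB complexes, together with CCAAT boxes bound by NF-Y. HEK293 cells divide fast in culture, and a bulk culture holds cells in every phase. A different number of cells in late cell cycle and a different amount of RNA per cell cannot be told apart in such RNA.

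A microRNA pairs with target transcripts mainly through its seed, bases 2 to 8. The mature sequence of miR-1825 is shown because it is the agent that separates the groups. It lies at chr20:32237830-32237847 on the plus strand of GRCh38.p14 (RefSeq), and its seed is in capitals:
hsa-miR-1825: uCCAGUGCccuccucucc

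The promoters of CCNB1, which had the largest difference of the 7, and of CKS1B, the only one of the 7 with a lower mean after the mimic, are shown for comparison. Each window runs from 250 bases before the start site to 50 bases after it, from RefSeq on GRCh38.p14, and capitals mark CHR letters (TTTGAA or TTCGAA) and CCAAT boxes on either strand. The CCNB1 window is chr5:69166900-69167199, plus strand, and the CKS1B window is chr1:154974431-154974730, plus strand:
CCNB1: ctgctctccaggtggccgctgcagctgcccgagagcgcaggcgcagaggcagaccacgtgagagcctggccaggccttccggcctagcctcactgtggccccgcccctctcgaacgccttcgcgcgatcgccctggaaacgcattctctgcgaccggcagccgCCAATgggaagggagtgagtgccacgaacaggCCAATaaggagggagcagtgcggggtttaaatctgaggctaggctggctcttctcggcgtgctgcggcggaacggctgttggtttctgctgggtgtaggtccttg
CKS1B: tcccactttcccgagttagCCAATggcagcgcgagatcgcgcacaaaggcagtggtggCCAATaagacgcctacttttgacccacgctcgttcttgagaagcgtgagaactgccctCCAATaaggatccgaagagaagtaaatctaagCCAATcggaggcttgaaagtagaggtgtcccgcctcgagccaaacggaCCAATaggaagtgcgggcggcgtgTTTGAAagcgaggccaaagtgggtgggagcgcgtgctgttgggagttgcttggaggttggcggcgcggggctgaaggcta
The CCNB1 window held 2 CCAAT boxes and no CHR in these spellings. The CKS1B window held 5 CCAAT boxes, the nearest to the start ending 50 bases before it, and a CHR from base -30 to base -25.

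RefSeq's table held 9 windows for the 7 genes, since FBXO5 and ECT2 have 2 start sites each. At least 1 CHR was found in 4 of the 7 genes and at least 1 CCAAT box in 5 of them. Counted by window, 5 of the 9 held a CHR, 5 a CCAAT box and 4 both. Among all 35116 windows of that length, 16.4% held a CHR, 34.6% a CCAAT box and 6.38% both. Both occurred together in FBXO5, CKS1B, ECT2 and NUSAP1, and neither occurred in the windows of MELK and CKAP2. The CHR letters of FBXO5, ECT2 and NUSAP1 are shown in 30 bases of context (FBXO5 on chr6:152982992-152983291, minus strand, where the match is on the opposite strand; ECT2 on chr3:172750476-172750775, plus strand, the first of its 2 matches; NUSAP1 on chr15:41332631-41332930, plus strand):
FBXO5: ttaggcaccaaaTTCAAAgattttaaaagt
ECT2: tcgttgggcttaTTTGAAacacacgcacaa
NUSAP1: tggcgccagggaTTTGAAccgcgctgacga
Of the 2 genes shown in full, CKS1B therefore carried more of these elements than CCNB1. A match in such letters is a description of the window and not evidence of binding.

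CCNB1 encodes cyclin B1 itself. Its log2 values were 10.02, 10.01, 10.04, 10.04, 9.98 and 9.96 on mimic-1825 arrays 1 to 6, against 9.82, 9.80, 9.76, 9.74, 9.88 and 9.82 on control arrays 1 to 6. Every mimic-1825 array lay above every control array, with a gap of 0.08 between the lowest of the first group and the highest of the second. The means were 10.01 ± 0.03 after the mimic and 9.80 ± 0.05 in controls (SD, n = 6 each), a log2 difference of 0.20 with a standard error (SE) of 0.04, or 1.15-fold. This was the largest difference among the 7 genes and 4.93 times the spread within groups.

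NUSAP1 encodes a protein that bundles spindle microtubules near chromosomes. Its lowest, median and highest log2 values were 10.65, 10.67 and 10.70 on mimic-1825 arrays, against 10.54, 10.57 and 10.61 on control arrays. The groups did not overlap here either. The log2 difference was 0.10 (SE 0.04), or 1.07-fold, smaller than in CCNB1 but with the tightest arrays of the 7: the SD was 0.02 after the mimic and 0.03 in controls. Of the brightest 25% of rows, 99.6% had a larger spread within groups than NUSAP1, and 94.0% had a larger one than CCNB1. A small spread helps a gene to be picked from these arrays, so these percentages support nothing.

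CKAP2, a spindle and centrosome protein that stabilises microtubules, ranged over 9.71, 9.79 and 9.84 (lowest, median and highest log2 value) after the mimic and over 9.60, 9.66 and 9.73 in controls. The groups overlapped narrowly: 5 of 6 mimic-1825 arrays lay above all controls, and mimic-1825 array 5 lay within their range. The log2 difference was 0.12 (SE 0.04), or 1.09-fold.

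ECT2 is the exchange factor that activates RhoA at the division plane so that the cleavage furrow can form. Its lowest, median and highest log2 values were 9.68, 9.77 and 9.84 on mimic-1825 arrays and 9.61, 9.66 and 9.69 on control arrays. Only mimic-1825 array 2 fell within the range of the controls. The log2 difference was 0.12 (SE 0.04), or 1.08-fold.

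FBXO5 encodes EMI1, an inhibitor that holds the APC/C off through S and G2 phase and so protects cyclins. Its lowest, median and highest log2 values were 7.48, 7.58 and 7.60 on mimic-1825 arrays, against 7.38, 7.45 and 7.54 on control arrays. The overlap was wider than in CKAP2 and ECT2. Mimic-1825 arrays 4 and 6 lay below control array 6, the highest control. The log2 difference was 0.10 (SE 0.04), or 1.07-fold.

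MELK, a serine/threonine kinase of the AMPK-related family that is abundant in mitosis, ranged over 9.17, 9.26 and 9.35 after the mimic and over 9.06, 9.14 and 9.21 in controls. Mimic-1825 arrays 4 and 5 lay below the highest control, array 2. The log2 difference was 0.13 (SE 0.05), or 1.09-fold, second in size among the higher genes, and the spread after the mimic, 0.07, was the largest of the 7.

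CKS1B encodes a small subunit that docks on cyclin-dependent kinases and helps the SKP2 ubiquitin ligase to recognise the inhibitor p27. Its log2 values were 7.14, 7.25, 7.23, 7.21, 7.27 and 7.24 on mimic-1825 arrays 1 to 6, against 7.31, 7.30, 7.38, 7.38, 7.33 and 7.34 on control arrays 1 to 6. Every mimic-1825 array lay below every control array, the lowest being mimic-1825 array 1. The means were 7.22 ± 0.05 after the mimic and 7.34 ± 0.04 in controls (SD, n = 6 each), a log2 difference of -0.12 (SE 0.04), or 0.923-fold. Its difference thus had the opposite sign to those of the other 6 genes. Its cluster is annotated with a non-coding RefSeq transcript of the gene, and RefSeq lists 7 pseudogenes under its symbol and 1 under that of CKAP2. Transcripts of such copies can bind the same probes, and their part in these values was not tested.

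**Figure D1:**
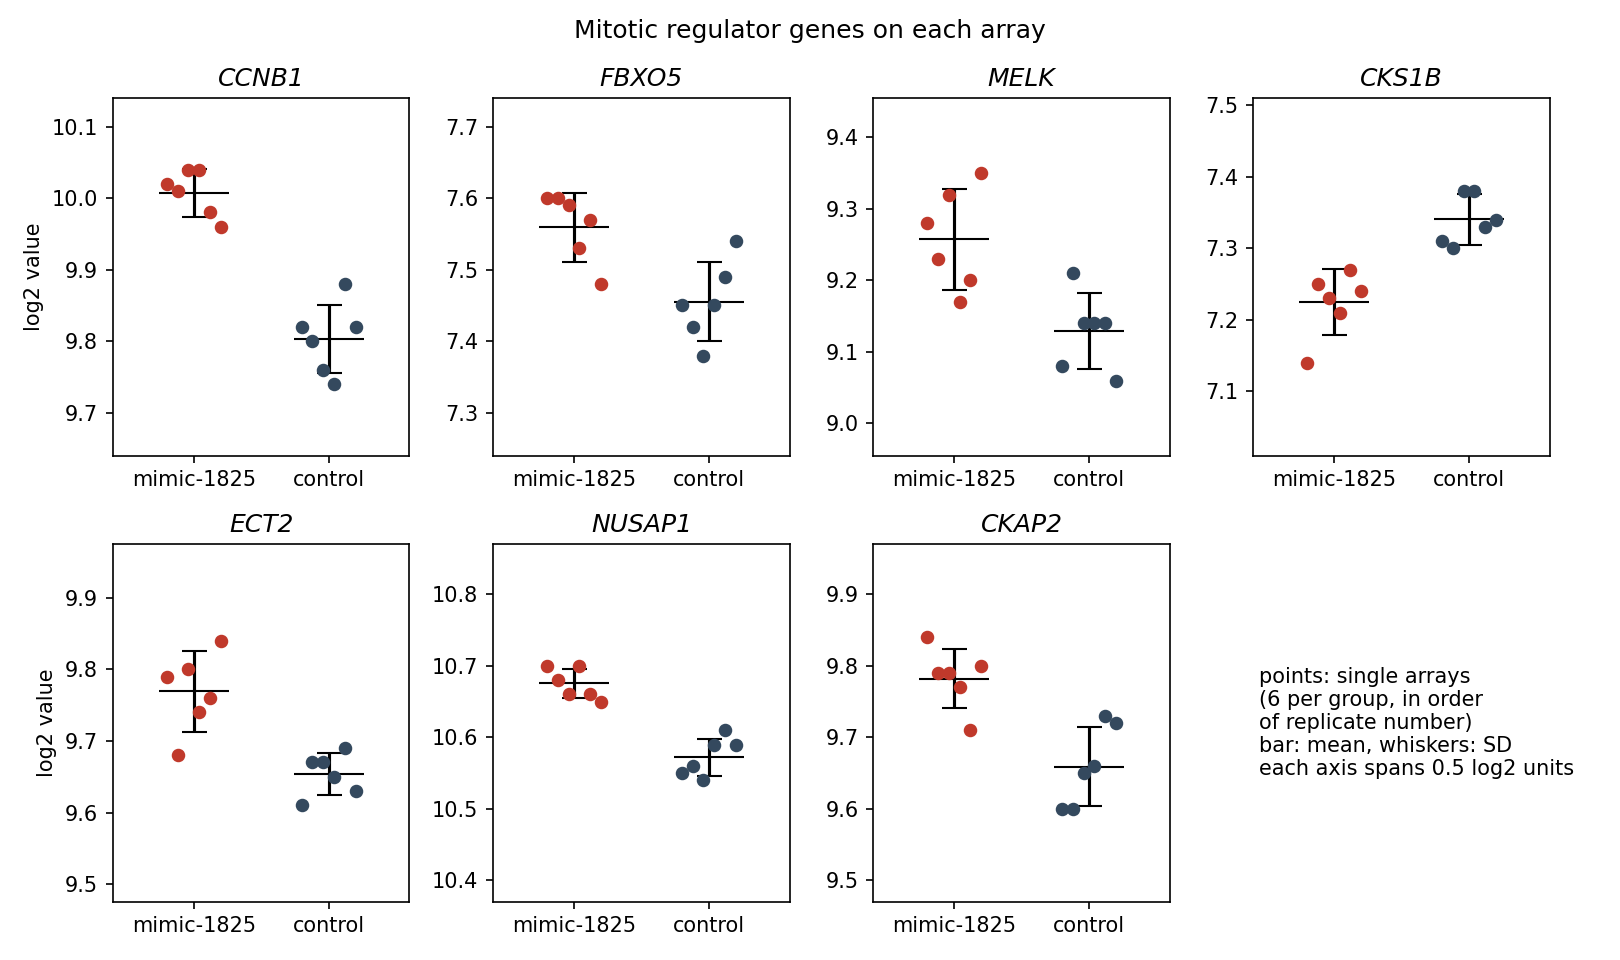
Log2 value of each of the 7 genes on the 6 mimic-1825 arrays (left in each panel) and the 6 control arrays (right); points are single arrays placed by replicate number, bars are means and whiskers SD. The groups are separate in CCNB1, NUSAP1 and CKS1B, with CKS1B lower after the mimic, and overlap in the other 4 genes.

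The groups did not overlap in 3 of the 7 genes, 2 higher (CCNB1 and NUSAP1) and 1 lower (CKS1B). All 7 lie in the brightest 25% of rows, where groups did not overlap in 2.52% of 13405 rows with the mimic higher and in 0.776% with it lower. In limma's fit over all 53617 rows 0 of the 7 were called at a Benjamini-Hochberg adjusted p of 0.05, where 0.0112% of rows were called and 5770 rows had an unadjusted p under 0.05. In the fit of the brightest 25% of rows 1 of the 7 was called, CCNB1, where 1.81% of rows were called. With a trend and robust prior over all rows 1 was called, again CCNB1, where 0.0727% of rows were called. Because the genes were picked for this contrast, nothing is read from any of these counts.

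The direction of all 7 differences was the same as deposited, after quantile normalization and with each array centred on its median. Quantile normalization gave log2 differences of 0.18 for CCNB1, 0.11 for MELK, 0.10 for CKAP2, 0.09 for ECT2, 0.09 for NUSAP1, 0.08 for FBXO5 and -0.14 for CKS1B. Median centring gave 0.22 for CCNB1 and -0.10 for CKS1B. The scaling thus moved the 6 higher genes down and CKS1B further from 0 in the first case, and the reverse in the second. The median log2 difference of the brightest 25% of rows moved with it: it was 0.02 as deposited, -0.004 after quantile normalization and 0.03 after centring. Array medians were between 4.44 and 4.51.

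**Figure D2:**
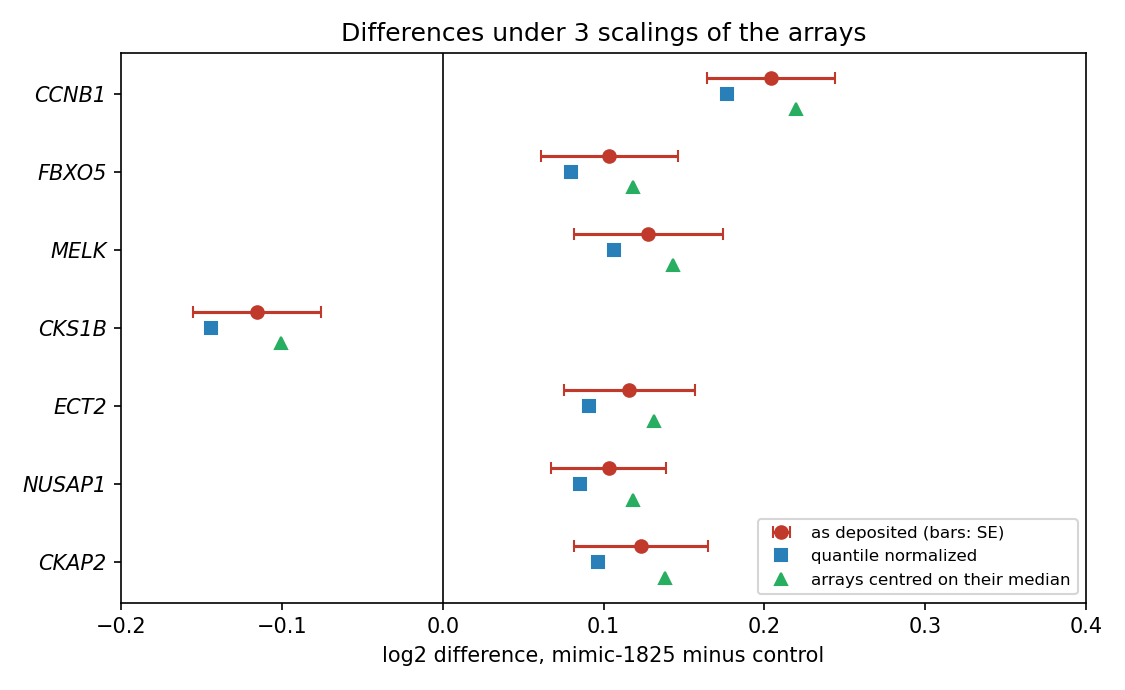
Log2 difference (mimic-1825 minus control) of each gene under 3 scalings of the arrays; circles are the deposited values with SE bars (6 arrays per group), squares quantile normalized and triangles median-centred values. CKS1B stays below 0 and the other 6 genes above 0 in all 3, with CCNB1 between 0.18 and 0.22.

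Whether the 7 genes also vary together among arrays of the same treatment was asked after each group's mean had been taken off, which removes the difference that the genes were picked for. Of the 21 gene pairs, 9 had a positive and 12 a negative Pearson correlation over the 12 arrays, with a median of -0.137. The sign of that median depended on the scaling and on single arrays: it was 0.181 after quantile normalization, 0.156 with arrays centred on their median and 0.068 without mimic-1825 array 1. None passed adjustment over the 21 pairs (0 by Pearson's r and 0 by Spearman's rho), in permutation tests with 100000 draws within groups (two-sided, Benjamini-Hochberg). At an unadjusted p under 0.05 there were 3 by Pearson's r and 1 by Spearman's rho. The closest pair was MELK and ECT2, with r = 0.751 (permutation p = 0.0109, adjusted 0.229) and rho = 0.748 (permutation p = 0.0162, adjusted 0.341). It was 0.749 without the 2 arrays farthest from the median of MELK. NUSAP1 had r = 0.645 with CKAP2 (permutation p = 0.0437, adjusted 0.347) and rho = 0.524 (permutation p = 0.111, adjusted 0.466), and r was 0.624 without the 2 farthest arrays. FBXO5 had r = 0.616 with NUSAP1 (permutation p = 0.0495, adjusted 0.347) and rho = 0.573 (permutation p = 0.0681, adjusted 0.466), and r was 0.534 without the 2 farthest arrays. CKS1B had a negative r with each of the other 6 genes, from -0.04 with ECT2 to -0.523 with CCNB1, where the permutation p was 0.0854. This sign did not hold throughout: without the 2 farthest arrays r was 0.34 with CKAP2 and 0.10 with ECT2, and rho with ECT2 was 0.007. With each array centred on its median 5 of the 21 pairs passed, and centring takes the same number off all 7 genes of an array. After quantile normalization 0 passed.

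**Figure D3:**
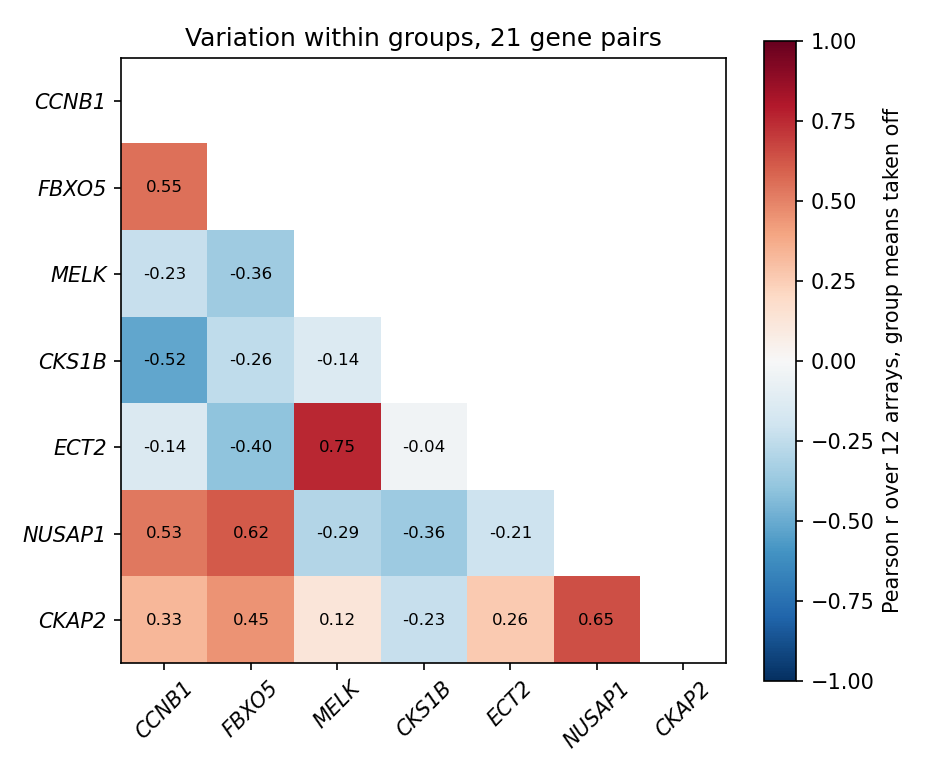
Pearson correlation of each pair of the 7 genes over 12 arrays after taking off the group means; red is positive and blue negative, and the number is r. MELK with ECT2 (0.75) and the pairs among CCNB1, FBXO5, NUSAP1 and CKAP2 are positive, as is CKAP2 with ECT2 (0.26) and with MELK (0.12). Every value in the row or column of CKS1B is below 0, which with CKAP2 and ECT2 turned without the 2 farthest arrays. Of the 21 pairs 0 passed the adjusted test.

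Other genes of the same machinery were taken from 6 lists, which had been drawn up with earlier results of these arrays known and left the 7 genes out. Of 100 listed genes 66 were measured here, 48 with a higher and 18 with a lower mean after the mimic, and the median log2 difference was 0.041. After quantile normalization 41 were higher and 25 lower with a median of 0.018, and with arrays centred on their median 54 were higher and 12 lower with a median of 0.056. As deposited, that of all named genes was 0.0002 and that of the 6432 named genes in the brightest 25% of rows was 0.018. After quantile normalization the median of these 6432 genes was -0.005. With arrays centred, that of the brightest 25% of rows, named or not, was 0.034. In limma's fit over all rows 0 of the 66 were called, where 0.0112% of rows were called, and the lowest adjusted p was 0.237. At an unadjusted p under 0.05, 12 of the 66 (18.2%) were higher and 1 (1.52%) was lower. Among the named genes of the brightest 25% of rows these shares were 11.0% and 3.02%, and among all named genes 6.69% and 4.19%. The 12 became 6 without control array 2, 8 after quantile normalization, 8 with a replicate block and 18 with a trend and robust prior. Of all 53617 rows, 5770 had an unadjusted p under 0.05 in either direction with no alternative. Under these alternatives, in the same order, 5056, 5570, 5181 and 6013 had one. In the fit of the brightest 25% of rows 1 of the 66 was called, CKAP2L, where 1.81% of rows were called.

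The list of the CDK1 switch had 12 measured genes, 10 with higher and 2 with lower means, a median log2 difference of 0.045 and 0 called. After quantile normalization 9 were higher and 3 lower, with a median of 0.029. CDK1, the kinase that cyclin B1 activates, ranged over 9.41, 9.46 and 9.56 (lowest, median and highest log2 value) after the mimic and over 9.26, 9.32 and 9.44 in controls. Its log2 difference was 0.13 (SE 0.05, limma adjusted p = 0.359), and the groups overlapped. MASTL, the Greatwall kinase that restrains the phosphatase opposing CDK1, had 0.12 (SE 0.05, limma adjusted p = 0.427). CCNB2, which encodes cyclin B2, had 0.07 (SE 0.04, limma adjusted p = 0.581). CKS2, the close relative of CKS1B, had a log2 difference of 0.07 (SE 0.04, limma adjusted p = 0.626) and was named after its values were seen, for comparison with CKS1B. Its lowest, median and highest log2 values were 10.61, 10.73 and 10.81 after the mimic and 10.62, 10.65 and 10.69 in controls, and the lowest array of all was a mimic-1825 array. Whether the differences of CKS1B and CKS2 differ from each other was not tested.

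The APC/C and its regulators, the machinery that FBXO5 restrains and that marks cyclin B1 for destruction, had 19 measured genes, 10 with higher and 9 with lower means. The median log2 difference was 0.025, near that of the bright named genes, and 0 were called. It was 0.002 after quantile normalization, 0.04 with arrays centred on their median, and between 0.003 (without control array 2) and 0.03 when single arrays were left out. CDC23, a scaffold subunit, had log2 values of 10.49, 10.52 and 10.61 (lowest, median, highest) after the mimic and 10.29, 10.40 and 10.46 in controls. Its groups did not overlap, and its log2 difference was 0.14 (SE 0.04, limma adjusted p = 0.292). ANAPC4, another subunit, had 0.13 (SE 0.05, limma adjusted p = 0.363). UBE2S, the conjugating enzyme that extends ubiquitin chains on APC/C substrates, was the 1 gene of the 66 with a lower mean at an unadjusted p under 0.05. It had log2 values of 8.07, 8.19 and 8.26 after the mimic and 8.16, 8.33 and 8.53 in controls, a log2 difference of -0.15 (SE 0.07, limma adjusted p = 0.445), with all 6 mimic-1825 arrays below the control mean. Like CKS1B, it stood against the direction of most genes described here.

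The list of SCF ligase subunits and CDK inhibitors, which holds the partners of CKS1B, had 4 measured genes of 9, 2 with higher and 2 with lower means, and 0 called. The median log2 difference was 0.002, and its sign was not stable: it was -0.021 after quantile normalization and -0.005 without mimic-1825 array 4. The core subunits SKP1 and CUL1 had log2 differences of 0.08 (SE 0.07, limma adjusted p = 0.746) and 0.01 (SE 0.04, limma adjusted p = 0.940), that of CUL1 turning to -0.01 after quantile normalization. The row of SKP1 was dim, with mean log2 values of 4.84 after the mimic and 4.77 in controls. The median of all rows was 4.48. BTRC, a substrate receptor, had -0.03 (SE 0.04, limma adjusted p = 0.827). SKP2 and the inhibitor p27 (CDKN1B) were not analysed here.

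Cytokinesis genes, which act with ECT2, had 14 measured members, 11 with higher and 3 with lower means, a median log2 difference of 0.035 and 0 called. After quantile normalization 8 were higher and 6 lower, with a median of 0.013, and the median was 0.023 without control array 2. CEP55, which recruits the abscission machinery, had mean log2 values of 9.20 ± 0.03 after the mimic and 9.10 ± 0.06 in controls (SD, n = 6 each). Its groups did not overlap, and its log2 difference was 0.09 (SE 0.04, limma adjusted p = 0.445). The mitotic kinesin gene KIF20A had 0.13 (SE 0.06, limma adjusted p = 0.480). KIF23, the motor of the centralspindlin complex that brings ECT2 to the midzone, had 0.09 (SE 0.04, limma adjusted p = 0.513). RHOA, the GTPase that ECT2 activates, had a log2 difference of 0.01 (SE 0.04, limma adjusted p = 0.928) and was named after its values were seen. RACGAP1, counted among the genes with lower means, was also named after its values were seen. Its mean log2 values were 3.94 after the mimic and 4.02 in controls, below the lowest array median of 4.44.

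Spindle assembly genes, the group closest to NUSAP1 and CKAP2, had 7 measured members of 21, all 7 with higher means, a median log2 difference of 0.065 and 0 called over all rows. CKAP2L, a relative of CKAP2 with a role at the spindle, had log2 values of 8.32, 8.39 and 8.50 (lowest, median, highest) after the mimic and 8.20, 8.24 and 8.26 in controls. The groups did not overlap. Its log2 difference was 0.17 (SE 0.04), with a limma adjusted p of 0.237 over all rows and 0.0358 in the brightest 25% of rows. KIF11, the kinesin that pushes spindle poles apart, had 0.10 (SE 0.04, limma adjusted p = 0.416), and HMMR, a spindle assembly factor, had 0.13 (SE 0.06, limma adjusted p = 0.452). The groups of KIF11 did not overlap either. Nor did those of KPNB1, named after its values were seen, with a log2 difference of 0.06 (SE 0.04, limma adjusted p = 0.54). Of the brightest 25% of rows, 2.52% had separate groups with the mimic higher.

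Regulators of late cell cycle transcription, among them MuvB subunits and their partners, had 10 measured members, 8 with higher and 2 with lower means, a median log2 difference of 0.053 and 0 called. After quantile normalization 6 were higher and 4 lower, with a median of 0.03, and the median was 0.028 without control array 6. LIN54, the MuvB subunit that contacts the CHR, had mean log2 values of 8.02 ± 0.05 after the mimic and 7.90 ± 0.04 in controls (SD, n = 6 each). The groups were separate by a narrow margin, and its log2 difference was 0.12 (SE 0.04, limma adjusted p = 0.337). LIN9, another MuvB subunit, had 0.14 (SE 0.04, limma adjusted p = 0.292), and RBL1, the pocket protein p107, had 0.11 (SE 0.04, limma adjusted p = 0.406). FOXM1 and MYBL2, the activators that join MuvB late in the cycle, had log2 differences of 0.02 (SE 0.04) and -0.004 (SE 0.06), with limma adjusted p values of 0.883 and 0.989, and were named after their values were seen.

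**Figure D4:**
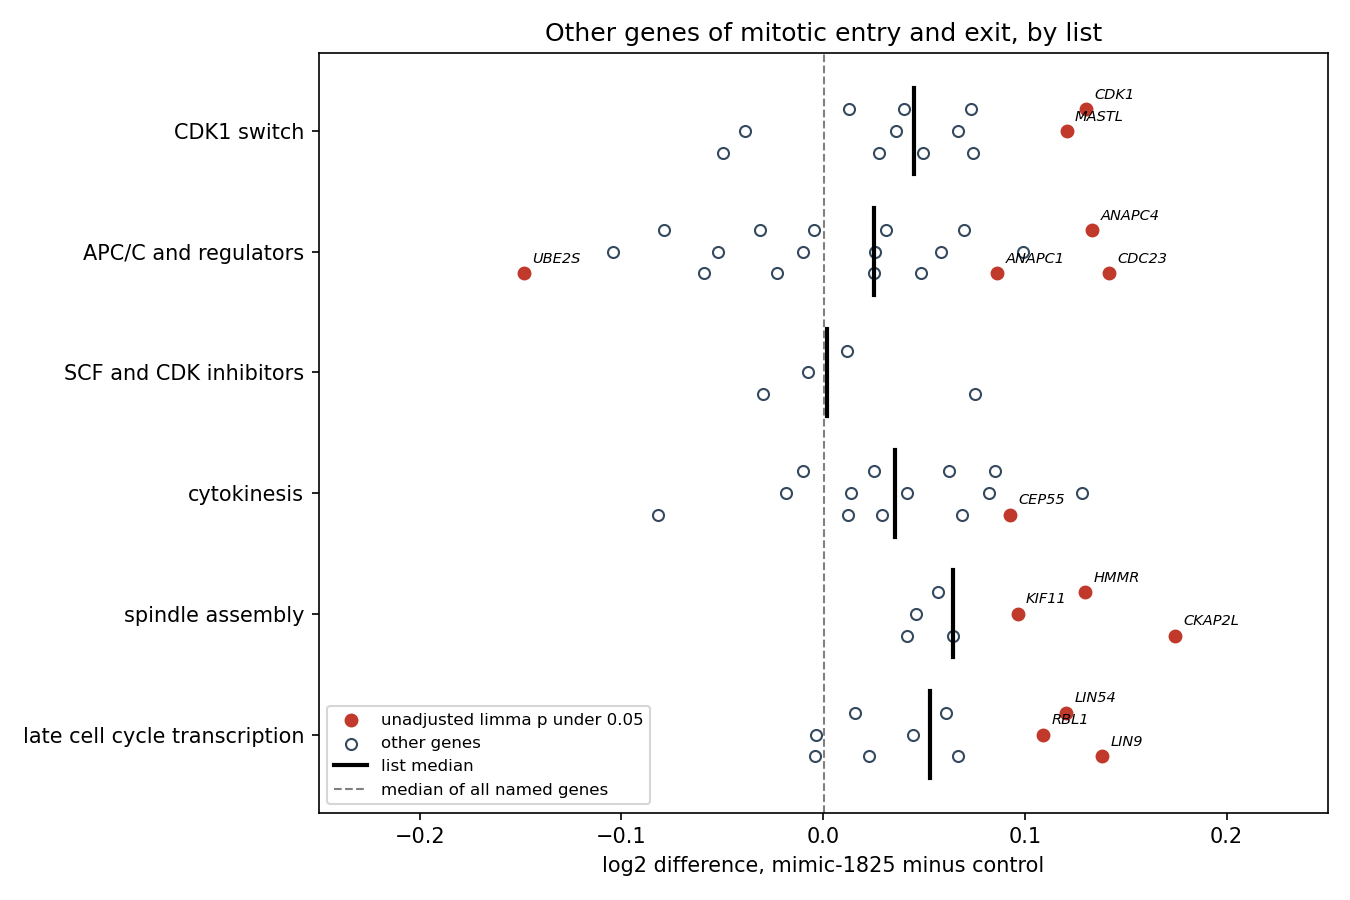
Log2 difference (mimic-1825 minus control, 6 arrays per group) of the 66 measured genes of 6 lists; each point is a gene, filled and labelled where limma's unadjusted p was under 0.05, black bars are list medians and the dashed line is the median of all named genes. Of the labelled genes 12 (18.2% of the 66) lie above 0 and 1 (1.52%), UBE2S, below, and 0 of the 66 passed the adjusted test over all rows. Among named genes in the brightest 25% of rows these shares were 11.0% and 3.02%, and the median was 0.018, above the dashed line.

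The genes whose array-by-array pattern was most like that of CCNB1 were sought among 10691 other named genes whose mean reached the median of all rows. Likeness was the root mean square difference between values over the 12 arrays, with each gene's mean over 12 arrays taken off, so the shift between groups counts in it. SNX2, a sorting nexin gene of the endosome, was closest at 0.036 log2 units. Its lowest, median and highest log2 values were 10.34, 10.38 and 10.43 after the mimic and 10.16, 10.25 and 10.26 in controls. It was followed by the DNA helicase gene MCM8 (0.043), the kinetochore gene SKA1 (0.050), the peroxisome biogenesis gene PEX3 (0.050), BTBD1 (0.051) and the RNA helicase gene DDX52 (0.052). In all 6 the mimic-1825 arrays lay above all control arrays, with log2 differences from 0.12 in PEX3 to 0.24 in SKA1. Groups were separate in this direction in 2.52% of the brightest 25% of rows. The 6 were chosen for likeness to CCNB1, whose groups are separate, so their separation supports nothing. Among the other genes picked with CCNB1, NUSAP1 was nearest to it at 0.060, with 34 of the 10691 genes closer, and CKAP2 followed at 0.063 with 57 closer. FBXO5, at 0.065, had 72 closer genes, ECT2 198, MELK 504 and CKS1B, with its lower mean after the mimic, 7477. The genes picked with CCNB1 were picked for the shift between groups, which counts in this distance, so their ranks support nothing. Between 2 and 4 of the 6 nearest genes were again among the 6 when single arrays were left out.

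The label of the cells could be set against 4 of 8 HEK293 markers, which do not settle it. EN2 and VIM had mean log2 values of 9.10 and 8.01 after the mimic and 9.14 and 8.08 in controls. LHX1 and PAX2 were lower, at 6.47 and 5.61 after the mimic and 6.38 and 5.59 in controls. PAX2 was thus near the leukocyte gene SPI1, at 5.39 after the mimic and 5.71 in controls. The neurofilament genes were not analysed here. An epithelial gene, CLDN3, also had mean log2 values of 7.13 after the mimic and 7.17 in controls, above LHX1 and PAX2. The other measured epithelial genes were lower, from 3.37 (ESRP1) to 5.38 (ESRP2) after the mimic and from 3.29 to 5.51 in controls. With such an exception these values alone do not tell cell types apart. Summed log2 levels of the measured markers of other cell types overlapped between groups. They were 15.2 to 15.9 after the mimic and 15.4 to 16.3 in controls for 3 leukocyte genes, 13.4 to 13.9 and 13.4 to 13.8 for 3 fibroblast genes, and 36.6 to 37.7 and 36.9 to 38.1 for 8 epithelial genes. The leukocyte gene SPI1 and the epithelial gene CLDN7 had unadjusted limma p values of 0.0147 and 0.0210 with lower means after the mimic (log2 differences of -0.31 and -0.22, limma adjusted p = 0.347 and 0.379). Background levels could not be set, and the part of such RNA in the results was not tested.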

How the data were processed

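The deposited table holds log2 expression values, 1 per array for 53617 rows (transcript clusters), made by the authors: the submitters' processing notes name Affymetrix Expression Console. Its version and settings were not given in the sources used here, and the log2 scale was read from the range, 1.62 to 14.4. Rows were named through the platform annotation: 16098 carried a single symbol, 0 carried several, and 37519 stayed unnamed here. The row with the highest mean over 12 arrays stood for a gene. Groups came from the sample titles.

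Mimic-1825 minus control was fitted over all rows with limma 3.58.1 in R 4.3.3 (lmFit, eBayes, no trend, no block), two-sided, with Benjamini-Hochberg adjustment and a threshold of 0.05. The fit was tested on simulated data. The number of arrays limits the precision. The 7 genes, the lists and the tests were chosen with earlier results of these data known. Named genes were the 7, the 3 genes of each list with the smallest p and any called, and the 6 genes most like CCNB1. Promoter and microRNA sequences are RefSeq's (GRCh38.p14). The array's own build was not given in the sources used here, so coordinates of its transcript clusters are not printed. Those printed are of promoter windows and of miR-1825 in RefSeq. Alternatives were 2 scalings, 2 filters on low values, a trend and robust prior, 1 row per named gene, a replicate block and leaving out each array. Replicate numbers 1 to 6 recur in both groups. Over the brightest 25% of rows same-numbered arrays correlated between -0.113 and 0.13 in their deviations from group means, so the numbers were not taken as pairs.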

Additional observations from a re-analysis of the deposited data

Results flagged for a closer look

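Of 62 groups of 6 arrays (31 named genes, each in both groups), 4 had an array whose gap to the rest exceeded Dixon's 95% critical value for 6 arrays, where chance gives about 1 in 20. None was in the 7 genes themselves. KIF20A was highest on mimic-1825 array 2 at 9.97, against 9.72 to 9.80 on the other mimic-1825 arrays. CEP55 was lowest on control array 6 at 9.0, against 9.10 to 9.15 on the other controls. KIF23 was highest on control array 4 at 10.85, against 10.63 to 10.71. SKA1 was lowest on control array 4 at 8.24, against 8.34 to 8.40.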

How the results depend on the processing

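Of 872 values recomputed under 19 alternatives, 827 kept their direction and their side of the threshold or stayed within the spread between arrays. The log2 differences of the 7 genes kept their signs in all 19: their median ranged from 0.09 to 0.13, that of CCNB1 from 0.18 to 0.22 and that of CKS1B from -0.14 to -0.10. Much of this was fixed in advance. The filters, the prior, the replicate block and 1 row per named gene cannot change a gene's difference, here or among the 872 values. Leaving out a single array cannot turn the sign where groups do not overlap. The genes were also picked for this contrast, so their kept signs support nothing. The number of rows called, 6 in the fit over all rows, was 0 with a replicate block and 0 with 1 row per named gene, 13 among rows whose mean reached the median, 242 in the brightest 25% of rows and 39 with a robust prior and trend. It lay between 0 and 6 when single arrays were left out. The number of the 7 genes called was 1 in the brightest 25% of rows and 1 with a trend and robust prior, against 0 otherwise. Of the 66 list genes 1 was called in the brightest 25% of rows. In the fit over all rows the replicate block changed no call of the 7 genes or the list genes, 0 with and without it. It was not run in the brightest 25% of rows or with a trend and robust prior. List genes with a higher mean at an unadjusted p under 0.05 numbered 6 to 12 without single arrays, with 6 left without control array 2. They were 12 with no alternative, 8 after quantile normalization, 8 with a replicate block and 18 with a trend and robust prior. Those with a lower mean numbered 2 after quantile normalization, 0 with arrays centred on their median and 0 to 1 without single arrays. Gene pairs passing the test were 5 of 21 with arrays centred and 0 to 1 without single arrays (1 without mimic-1825 array 2). CUL1 turned to -0.01 after quantile normalization, far from any call. The cause of these shifts was not tested. Averaging several rows of a gene was not run, since each of the 7 genes had 1 row.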
